A study of Melianthus elongatus with 11 samples.

Results

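Libraries of code 2 were set against libraries of code L in RNA sequencing of Melianthus minor (M. elongatus), a shrub whose nectar is black. The groups were formed by the first part of the library code, and they hold 6 of the 11 libraries of the study: 2-A, 2-B and 2-C against L-A, L-B and L-C. The code 2 libraries are filed as secretory nectary, although the title of 2-A reads presecretory. The code L libraries are filed as postsecretory nectary. The plants stood outdoors in an arboretum, tissue was put in RNAlater, a solution that preserves RNA, and no treatment, genotype or plant age is recorded that separates the codes. Dissected nectaries kept some neighbouring tissue, which was removed before further work. The meaning of the codes is not given, and nothing says that libraries of the same code came from separate plants. The p-values below therefore describe no more than the spread among these 6 libraries and the other 5 of the fit, and that spread may be technical.

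Nectaries are glands that secrete a sugar solution, the nectar. In Arabidopsis and its relatives the gland forms under the YABBY protein CRC and floral MADS-box factors, and it exports sucrose through the transporter SWEET9, after which cell wall invertase splits the sucrose outside the cell. The title of the study likens the pigment of the nectar to iron-gall ink, which is dark because iron binds phenolics derived from gallate, a product of the shikimate pathway. Leaf-like green tissue is instead rich in transcripts of the photosystems, which capture light, and of the Calvin cycle, which fixes carbon.

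The deposited table gives normalised read counts, as the authors call them, for 68651 contigs, assembled transcripts paired with their closest Arabidopsis locus. A contig is named here by that locus and its own number, so SWEET9 Mm6 is contig Mm6, closest to Arabidopsis SWEET9. Several contigs can share a locus, and reads shared by similar contigs may be split among them, so values of single contigs within a locus are uncertain. Contig lengths are not in the table, so levels are compared between libraries and never between contigs. The depth in reads is unknown, and contigs listed at 0 may be failed estimates. In bulk tissue, fewer cells of a type and less RNA per cell cannot be told apart.

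Column totals were 1136746, 1126705 and 1009697 in 2-A, 2-B and 2-C, against 642324, 631454 and 916467 in the code L libraries of the same letters. Values of 3 libraries are given in the order A, B, C throughout. Every code L total was below every code 2 total. Contigs at 10 or more in at least 2 of the 11 libraries were kept (26053), and log2(value + 1) was compared with limma. A contig was called higher or lower in code 2 at an adjusted p under 0.05 and a log2 difference, code 2 minus code L, of at least 1 in size. As deposited, 13652 contigs were higher (52.4% of those kept) and 3926 were lower (15.1%), so 77.7% of the calls were higher and the median log2 difference was 1.18. After each library was divided by its median ratio to the geometric mean of all libraries, 5571 contigs were higher (21.4%) and 6391 lower (24.5%), 46.6% of the calls were higher and the median difference was 0.09. With equal totals the corresponding values were 9508 higher (36.5%), 4874 lower (18.7%), 66.1% and 0.66.

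Every contig higher after median ratio scaling was also higher as deposited, and every contig lower as deposited was also lower after median ratio scaling. Counts below are given for the deposited values first and after median ratio scaling second. They stand beside 52.4% higher and 15.1% lower of all contigs kept as deposited, and 21.4% and 24.5% after median ratio scaling. A named contig was called in the same direction under both scalings unless its sentence says otherwise, which holds for 98 of the 108 contigs chosen by the naming rule. The codes did not overlap in 72.1% of the contigs kept, with code 2 wholly above in 56.5% and wholly below in 15.6%. Pearson's r across contigs, which are not independent replicates, was 0.767 to 0.878 within code 2, 0.904 to 0.922 within code L and 0.246 to 0.376 between them. Between codes 1 and 2 it was 0.761 to 0.897, a range that spans the one within code 2.

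The filed tissue of code L was checked against marker lists, and the values of the lists went against it. Contigs of photosystems and light harvesting summed to 0.446%, 0.615% and 0.670% of the column total in code 2. In code L, filed as nectary, the same contigs summed to 11.04%, 11.8% and 13.4%. The libraries of code 0, filed as leaf, had 0.890% and 0.891%, and those of code 1, filed partly as leaf and partly as nectary, had 0.607% to 0.919%. Nectary and flower regulators ran the other way, with 0.972%, 1.05% and 0.860% in code 2, against 0.0621%, 0.0538% and 0.0498% in code L. The code 0 libraries had 0.666% to 0.755% in that list. Among single nectary markers, SWEET9 Mm6 was also higher in code 2. CWINV4 Mm253088 went the other way, with 1.27, 0 and 0.509 in code 2, against 15.3, 23.5 and 15.9 in code L. The libraries are therefore called by their codes, and no tissue or stage is read from the comparison.

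**Figure D1:**
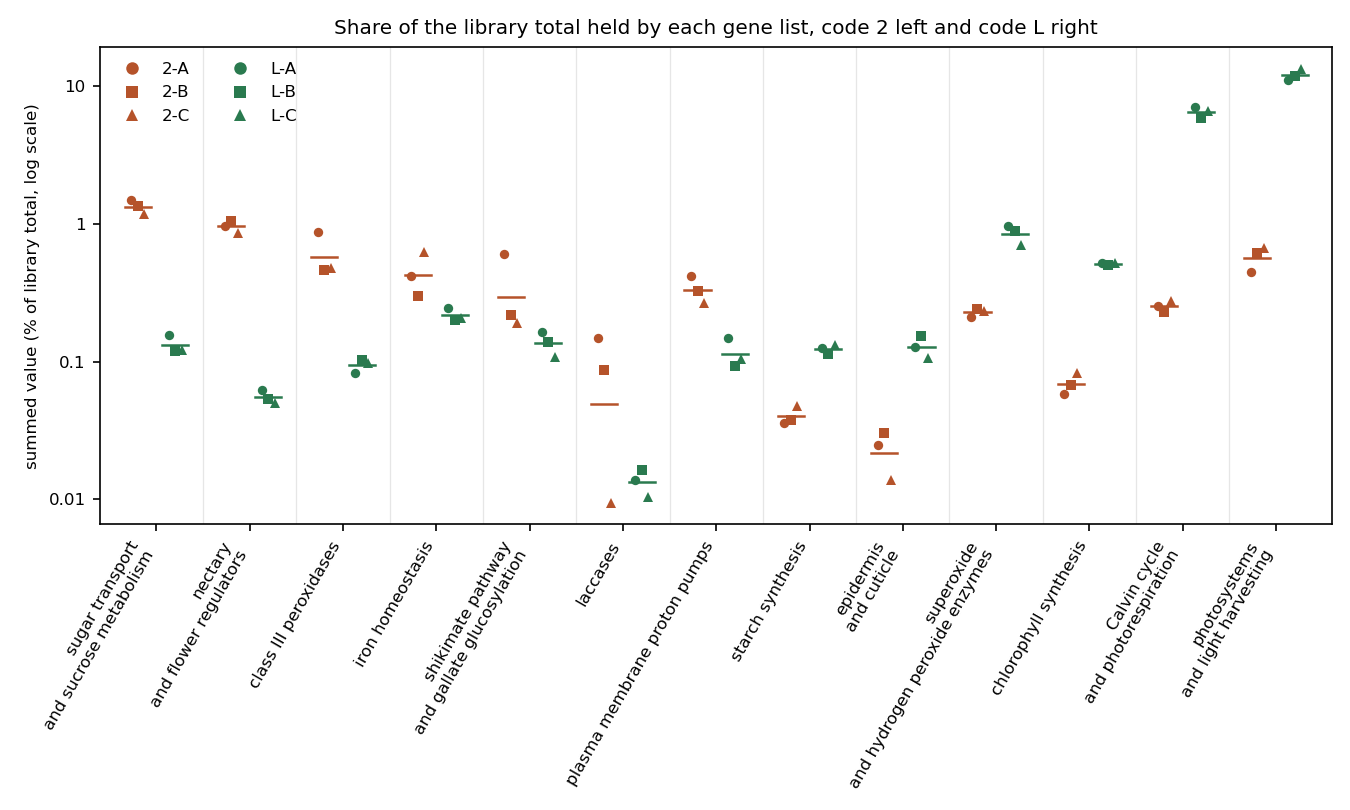
Summed value of 13 gene lists as a percentage of the column total (log scale), for code 2 libraries (left of each pair) and code L libraries (right). Points are single libraries and horizontal bars are geometric means. Photosystems and light harvesting took 11.04% to 13.4% in code L and 0.446% to 0.670% in code 2, and in laccases the 2-C point (0.00943%) lay below all 3 code L points.

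One code L library carried more of the code 2 transcripts than the others. Among 45 contigs with a code 2 mean of at least 500 and a log2 difference of at least 5, L-A was the highest code L library, ties included, for 40. The median value of these contigs was 1.27% of their code 2 mean in L-A, 0.181% in L-B and 0.218% in L-C. Among 61 contigs chosen the same way for code L, the median was 0.859%, 1.38% and 0.880% of the code L mean in code 2. Without L-A, all 108 named contigs kept their direction and their side of the threshold. What the L-A values come from was not tested.

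Transcripts of light capture were lower in code 2 almost throughout. Of 184 contigs of photosystems and light harvesting, 175 were lower and 1 was higher as deposited, and 177 were lower and 0 higher after median ratio scaling. The list's median log2 difference was -4.1 as deposited and -5.25 after median ratio scaling. PETE1 Mm92112, like plastocyanin, the copper protein that carries electrons to photosystem I, had 5.50, 13.9 and 2.98 in code 2, against 1657, 1640 and 2076 in code L. It fell by 7.94 on the log2 scale (SE 0.39; limma, adjusted p = 2.1e-07). PSBO1 Mm258086, a subunit of the oxygen-evolving complex, had 0.714, 0 and 1.08 in code 2, against 491, 650 and 821 in code L. PSBS Mm109512, which helps dissipate excess light energy, had 26.1, 39.5 and 10.6 in code 2, against 965, 1423 and 1033 in code L. In all of these contigs the groups lay far apart.

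Light-harvesting and chlorophyll genes were lower too. LHCB1.1 Mm3020, which binds chlorophyll a and b, had 158, 243 and 157 in code 2, against 1405, 1397 and 2428 in code L (log2 difference -3.20, SE 0.32; limma, adjusted p = 1.1e-05). Chlorophyll synthesis moved in the same direction, with 21 of 26 contigs lower and 0 higher as deposited and all 26 lower after median ratio scaling. CHLH Mm842, a subunit of magnesium chelatase, had 42.4, 64.8 and 46.5 in code 2, against 282, 287 and 336 in code L. GLK1 Mm192579, a regulator of photosynthesis genes, had 0, 0.782 and 0.026 in code 2, against 48.5, 40.7 and 96.0 in code L. PORA Mm224160, a protochlorophyllide oxidoreductase, had at most 1.84 in code 2 and at least 83.5 in code L. The log2 difference was -5.58 for GLK1 Mm192579 and -5.70 for PORA Mm224160. Summed over all contigs of the locus, it was smaller, at -1.06 for GLK1 and -2.80 for PORA. Both sums were lower under both scalings.

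Carbon fixation contigs were lower as well, with 107 of 130 contigs of the Calvin cycle and photorespiration lower and 10 higher as deposited (median -3.91), and 115 lower and 6 higher after median ratio scaling (median -4.94). RBCS1A Mm17414, a small subunit of Rubisco, the carbon-fixing enzyme, had 58.1, 76.7 and 57.1 in code 2, against 4577, 3614 and 7139 in code L (log2 difference -6.25, SE 0.32; limma, adjusted p = 2.2e-07). RCA Mm68257, Rubisco activase, had 42.9, 51.1 and 50.8 in code 2, against 1148, 664 and 2274 in code L. CA1 Mm322422, a chloroplast carbonic anhydrase, was listed at 0 in all 3 code 2 libraries, against 2612, 1505 and 3171 in code L. A second contig of that locus, CA1 Mm156046, had 0.053, 0.295 and 1.22 in code 2, against 2329, 1857 and 2288 in code L. Summed over all contigs of a locus, 21 of 23 loci of this list were lower and 0 higher as deposited.

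The list's contigs with the opposite direction included CA2 Mm2176, like another carbonic anhydrase, with 197, 107 and 525 in code 2, against 5.47, 1.72 and 2.02 in code L. It rose by 5.89 on the log2 scale (SE 0.52; limma, adjusted p = 4.8e-06), while the sum over CA2 contigs was not called under either scaling. RBCS1A Mm9468 had 207, 90.9 and 82.5 in code 2, against 35.2, 26.1 and 27.3 in code L. It was higher as deposited (1.95) but not called after median ratio scaling (0.73), and the locus sum fell by 4.74.

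Starch synthesis and breakdown each held contigs of both directions. APL1 Mm178893, the leaf large subunit of ADP-glucose pyrophosphorylase, the committed step of starch synthesis, was listed at 0 in code 2, against 362, 336 and 555 in code L. APS1 Mm56940, like the small subunit of the same enzyme, had 2.09, 3.41 and 1.54 in code 2, against 83.7, 75.2 and 123 in code L (log2 difference -4.83, SE 0.34; limma, adjusted p = 1.3e-06). Summed over its contigs, APS1 differed less (-1.22) and was lower under both scalings. Over the 23 starch synthesis contigs kept, these included, 7 were higher and 4 lower as deposited, and 3 higher and 10 lower after median ratio scaling. The median of that list was 0.32 as deposited, -0.15 without L-B and -0.65 after median ratio scaling.

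Among starch breakdown contigs, BAM1 Mm17, a beta-amylase that frees maltose from starch, had 1414, 578 and 679 in code 2, against 82.0, 69.8 and 147 in code L (log2 difference 3.11, SE 0.38; limma, adjusted p = 4.1e-05). PWD Mm2704, which phosphorylates starch ahead of its breakdown, had 1350, 412 and 395 in code 2, against 72.9, 33.9 and 53.5 in code L. Both contigs were highest in 2-A and did not overlap between the codes. Over all contigs of its locus BAM3, another beta-amylase, had 2.23, 4.1 and 2.01 in code 2, against 69.8, 48.7 and 82.1 in code L, and fell by 4.18. MEX1 Mm15280, like the plastid maltose exporter, had 10.2, 13.6 and 17.3 in code 2, against 49.5, 51.8 and 55.2 in code L. Of the list's 34 contigs, 9 were higher and 14 lower as deposited, and 3 higher and 20 lower after median ratio scaling.

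Contigs of sugar export and sucrose metabolism were mostly higher in code 2. Of 81 contigs, 57 were higher and 8 lower as deposited (median 2.74), and 46 higher and 10 lower after median ratio scaling (median 1.75). SWEET9 Mm6, closest to the sucrose exporter of Arabidopsis nectaries, had 5216, 2725 and 3321 in code 2, against 36.8, 0.806 and 0.105 in code L. It rose by 9.74 on the log2 scale (SE 1.02; limma, adjusted p = 1.5e-05), and the L-A value was the highest of code L.

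Invertase contigs did not move as 1 group. CWINV2 Mm3, like a cell wall invertase, had 3905, 3438 and 83.5 in code 2, against 16.5, 1.1 and 0.301 in code L. The groups did not overlap, but 2-C lay far below 2-A and 2-B (log2 difference 8.17, SE 1.35; limma, adjusted p = 0.00028). CWINV4 Mm253088, closest to the invertase that nectar secretion needs in Arabidopsis, had 1.27, 0 and 0.509 in code 2, against 15.3, 23.5 and 15.9 in code L, and fell by 3.65. Summed over the CWINV4 contigs, code 2 had 5.81, 14.2 and 0.509, against 15.5, 23.5 and 15.9 in code L, which was not called as deposited and was lower after median ratio scaling. The vacuolar invertase locus VAC-INV had 29.0, 63.3 and 243 in code 2, against 0.874, 2.76 and 2.57 in code L.

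Sucrose synthases, which split sucrose with UDP inside the cell, were higher at both of the loci named here. SUS1 Mm120 had 1328, 2078 and 997 in code 2, against 42.6, 58.7 and 52.8 in code L (log2 difference 4.75, SE 0.31; limma, adjusted p = 8.1e-07). The SUS4 locus, summed over its contigs, had 3435, 4070 and 2812 in code 2, against 82.6, 78.9 and 63.4 in code L. Sucrose phosphate synthases, which make sucrose phosphate, differed by locus. The SPS3F sum was 331, 278 and 149 in code 2, against 2.39, 0.250 and 0.616 in code L, while SPS4F Mm1396 had 16.7, 16.7 and 19.8 in code 2, against 73.9, 41.8 and 90.6 in code L, and fell by 1.83. SPS2F Mm108508 had 16.3, 20.8 and 13.8 in code 2, against 13.5, 14.7 and 15.0 in code L, overlapped and was not called (log2 difference 0.20, SE 0.21; limma, adjusted p = 0.40).

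Other SWEET transporters, which move sugars across membranes, also differed by locus. SWEET7 was higher, with sums of 232, 248 and 7.33 in code 2, against 1.93, 0.197 and 0 in code L. SWEET11 Mm82124 had 8.39, 39.9 and 4.45 in code 2, against 58.3, 55.5 and 92.5 in code L, and fell by 2.41 (SE 0.63; limma, adjusted p = 0.0052), a call lost with library weights (-1.54). The SWEET12 sum was 15.6, 25.4 and 29.7 in code 2, against 22.1, 19.0 and 28.8 in code L. The SWEET12 groups overlapped as deposited and the sum was not called.

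**Figure D2:**
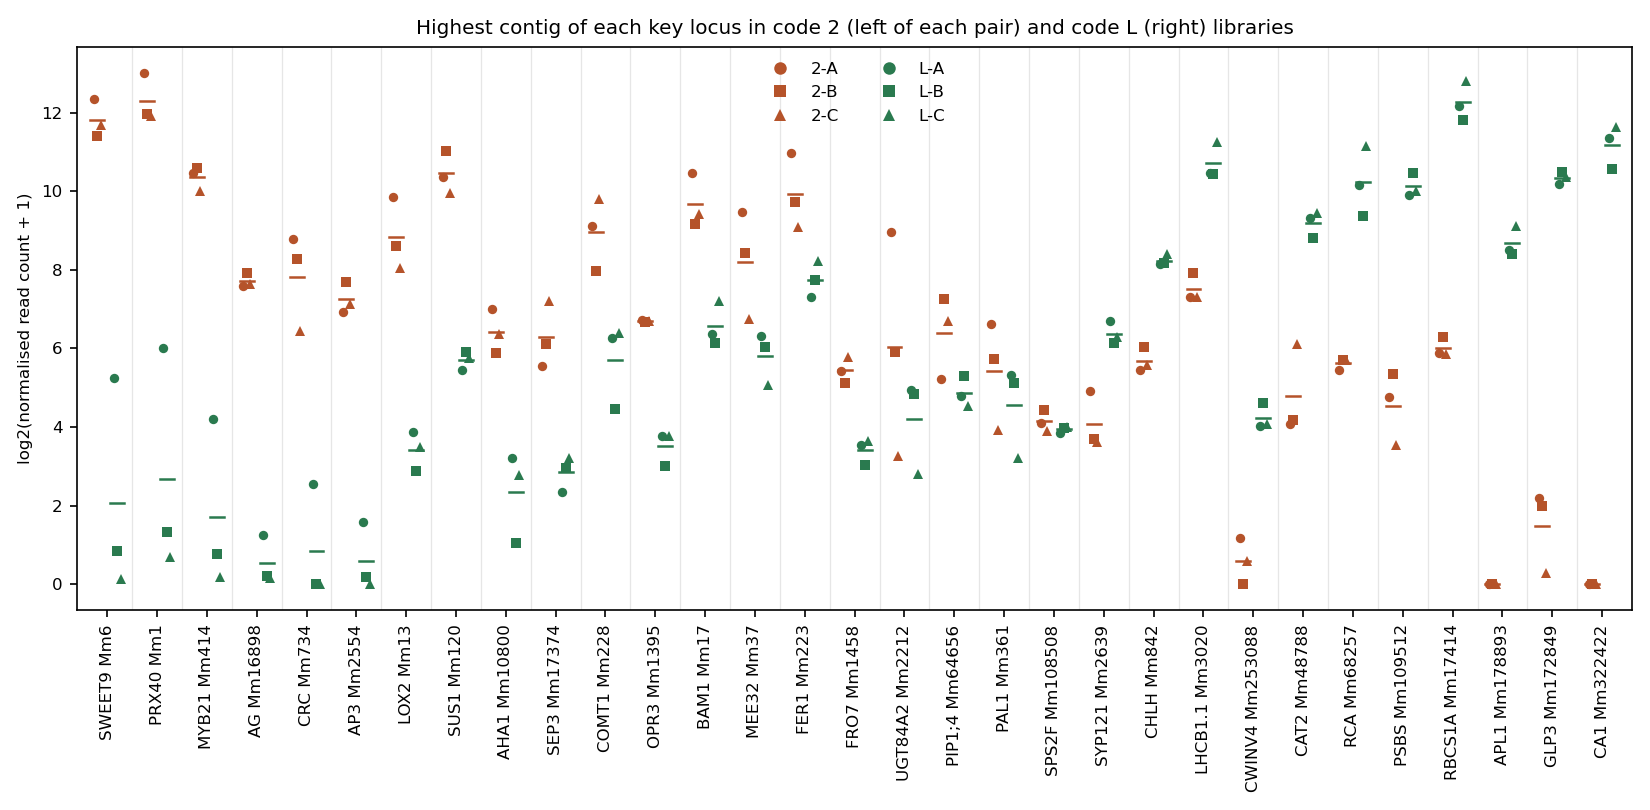
The highest contig of each of 31 key loci, as log2(normalised read count + 1), in code 2 libraries (left of each pair) and code L libraries (right), ordered by difference. Points are single libraries and horizontal bars are group means. SWEET9 Mm6 and PRX40 Mm1 stand highest over code L, CA1 Mm322422 and APL1 Mm178893 sit at 0 in code 2, and UGT84A2 Mm2212, PAL1 Mm361, PIP1;4 Mm64656 and SPS2F Mm108508 overlap.

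Regulators of flowers and nectaries were higher in code 2 with little exception. Of 95 contigs, 79 were higher and 1 lower as deposited (median 3.29), and 68 higher and 3 lower after median ratio scaling (median 2.73). MYB21 Mm414 and MYB24 Mm744 are closest to a pair of jasmonate-dependent factors of stamens and nectaries. MYB21 Mm414 had 1417, 1552 and 1029 in code 2, against 17.5, 0.705 and 0.139 in code L (log2 difference 8.64, SE 1.01; limma, adjusted p = 2.9e-05). MYB24 Mm744 had 1767, 1881 and 1202 in code 2, against 14.6, 0.531 and 0.105 in code L.

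CRC Mm734, the YABBY factor that nectary formation needs in Arabidopsis, had 438, 310 and 85.5 in code 2, against 4.84, 0 and 0 in code L. It rose by 6.98 on the log2 scale (SE 0.72; limma, adjusted p = 1.3e-05). AG Mm16898, the floral organ identity factor AGAMOUS, had 193, 241 and 200 in code 2, against 1.4, 0.156 and 0.124 in code L (log2 difference 7.18, SE 0.31; limma, adjusted p = 1.2e-07). The sum of SHP1, a close MADS-box relative of AG, was 857, 887 and 815 in code 2, against 10.3, 0.736 and 1.12 in code L. AP3 Mm2554, of petal and stamen identity, had 121, 204 and 139 in code 2, against 2.02, 0.127 and 0 in code L. SEP3 Mm17374, a partner of these factors, had 46.2, 68.4 and 148 in code 2, against 4.11, 6.80 and 8.32 in code L.

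Some regulators were not called under both scalings. The sum of AP1, of floral meristem identity, had 225, 328 and 368 in code 2, against 68.0, 63.2 and 96.3 in code L, which was called as deposited (2.00) but not after median ratio scaling (0.77). The sum of FUL, of fruit and meristem identity, had 25.6, 99.9 and 143 in code 2, against 30.9, 44.0 and 87.3 in code L, overlapped and was not called. YAB2, a YABBY factor of leaves and floral organs, had 27.1, 38.5 and 24.2 in code 2, against 48.4, 40.8 and 55.1 in code L when summed, which was not called as deposited and was lower after median ratio scaling.

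Contigs of jasmonate, the hormone that controls stamen and nectary maturation, moved in both directions. Of 78, 42 were higher and 11 lower as deposited (median 1.44), shares close to the 52.4% and 15.1% of all contigs kept, and 29 were higher and 22 lower after median ratio scaling (median 0.40). Summed per locus, 12 of 22 loci were higher and 3 lower as deposited, and 7 higher and 8 lower after median ratio scaling. LOX2 Mm13, a lipoxygenase that starts jasmonate synthesis, had 933, 386 and 264 in code 2, against 13.6, 6.31 and 10.2 in code L (log2 difference 5.43, SE 0.41; limma, adjusted p = 2.0e-06). OPR3 Mm1395, a later enzyme of the pathway, had 105, 102 and 103 in code 2, against 12.7, 7.08 and 12.6 in code L. JAZ1 Mm25184, a repressor that jasmonate removes, had 170, 89.4 and 108 in code 2, against 1.05, 0 and 1.80 in code L. JAZ3 Mm7347, another such repressor, had 26.6, 21.0 and 7.71 in code 2, against 63.2, 50.5 and 96.8 in code L, and fell by 1.98. JAZ3 Mm4505, of the same locus, went the other way, with 42.6, 34.6 and 56.8 in code 2, against 10.1, 4.47 and 12.3 in code L, and the JAZ3 sum was not called as deposited (-0.33) and was lower after median ratio scaling (-1.56). LOX2 Mm2881, a second contig of its locus, had 33.2, 35.6 and 30.0 in code 2, against 124, 47.4 and 196 in code L. It fell by 1.64, a call lost without L-C (-1.20). Sums of LOX2 and JAZ1 were higher as deposited (2.19 and 2.22) and not called after median ratio scaling (0.95 and 0.98).

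Shikimate pathway contigs, of the route to aromatic compounds and gallate, were called higher no more often than all contigs kept (52.4% as deposited). Of 52 contigs, 25 were higher and 4 lower as deposited (median 1.39), and 8 higher and 7 lower after median ratio scaling (median 0.41). MEE32 Mm37, like the enzyme that makes and reduces dehydroshikimate, the precursor of gallate, had 709, 342 and 106 in code 2, against 78.4, 65.2 and 32.6 in code L. It was higher as deposited (log2 difference 2.40, SE 0.57; limma, adjusted p = 0.0028), and not called after median ratio scaling (1.171). The values fell apart within code 2, with 2-A highest and 2-C nearest to code L.

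The sum of DHS1, the first enzyme of the pathway, was 1669, 385 and 46.5 in code 2, against 95.4, 83.7 and 54.8 in code L, and was not called. As for MEE32 Mm37, 2-A was highest and 2-C lowest within code 2. UGT84A2 Mm2212, closest to a glucosyltransferase of hydroxycinnamic acids whose relatives in other plants attach glucose to gallate, had 494, 58.7 and 8.59 in code 2, against 29.8, 27.7 and 6.02 in code L. These groups overlapped and the contig was not called (log2 difference 1.84, SE 1.1; limma, adjusted p = 0.15), but without 2-C it passed the threshold (3.23). UGT84A1 Mm3215, of the same family, had 303, 89.0 and 90.197 in code 2, against 23.6, 10.2 and 26.9 in code L, and rose by 2.78 (SE 0.51; limma, adjusted p = 0.00053), with 2-B and 2-C close together. The sum of its locus was 2276, 614 and 529 in code 2, against 217, 134 and 163 in code L, which was called as deposited (2.42) but not after median ratio scaling (1.19).

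Phenylpropanoid and lignin contigs went both ways. Of 29, 15 were higher and 5 lower as deposited (median 1.27), shares close to the 52.4% and 15.1% of all contigs kept. After median ratio scaling, 8 were higher and 6 lower (median 0.18). PAL2 Mm270, like the ammonia-lyase that opens the pathway, had 159, 53.1 and 140 in code 2, against 9.81, 3.59 and 8.80 in code L (log2 difference 3.76, SE 0.44; limma, adjusted p = 2.7e-05). PAL1 Mm361 had 97.3, 52.6 and 14.2 in code 2, against 38.8, 34.1 and 8.28 in code L, overlapped and was not called, although without 2-C it passed the threshold (1.63). PAL1 Mm22331 had 4.03, 2.51 and 14.9 in code 2, against 91.7, 71.2 and 29.1 in code L, and fell by 3.16. COMT1 Mm228, a methyltransferase of lignin precursors, had 551, 248 and 896 in code 2, against 76.03, 21.1 and 83.6 in code L, and CCR1 Mm3283, a reductase of the same route, had 76.7, 39.8 and 207 in code 2, against 6.44, 5.59 and 10.6 in code L.

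Laccases, copper oxidases that couple phenolics, were higher in 9 of 14 contigs and lower in 1 as deposited, and higher in 8 and lower in 1 after median ratio scaling. LAC14 Mm572 had 209, 97.4 and 9.36 in code 2, against 0.905, 0.388 and 0 in code L (log2 difference 5.44, SE 0.88; limma, adjusted p = 0.00024). LAC14 Mm459 had 153, 49.7 and 21.0 in code 2, against 1.41, 0.276 and 0.374 in code L. Summed, LAC14 had 1105, 400 and 56.6 in code 2, against 49.9, 34.9 and 6.09 in code L, and LAC15 had 514, 531 and 21.8 in code 2, against 14.6, 22.6 and 9.65 in code L. Both sums were called as deposited and not after median ratio scaling, and 2-C was the lowest code 2 library in each. Over the 5 laccase loci, sums were higher for 3 and lower for 2 as deposited, and higher for 1 and lower for 2 after median ratio scaling. The list's median was 2.88, and 4.52 without 2-C. The LAC2 sum went the other way, with 2.79, 2.17 and 2.77 in code 2, against 6.24, 12.8 and 18.3 in code L.

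Flavonoid contigs leaned lower in code 2 after median ratio scaling, with 5 of 22 higher and 6 lower as deposited (median -0.28, or 0.02 without 2-C and 0.31 without L-C), and 3 higher and 11 lower after median ratio scaling (median -1.27). FLS1 Mm67310, a flavonol synthase, had 4.28, 1.1 and 0.343 in code 2, against 207, 199 and 90.6 in code L (log2 difference -5.99, SE 0.48; limma, adjusted p = 3.1e-06). TT4 Mm7022, like chalcone synthase, the first committed enzyme, had 40.3, 56.2 and 15.1 in code 2, against 356, 396 and 174 in code L. TT4 Mm8445, of the same locus, went the other way, with 26.6, 43.0 and 7.895 in code 2, against 0.434, 0.126 and 0.173 in code L. The TT4 sum was lower under both scalings (-2.28 as deposited). TT5 Mm642, like chalcone isomerase, had 419, 280 and 212 in code 2, against 109, 114 and 99.6 in code L. TT5 Mm642 was higher as deposited (1.43), and called neither after median ratio scaling (0.20) nor with equal totals (0.84).

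Secreted peroxidases of class III, which use hydrogen peroxide to oxidise phenolics in the cell wall, included 1 of the 10 largest rises by the naming rule. PRX40 Mm1 had 8313, 4011 and 3885 in code 2, against 63.1, 1.52 and 0.621 in code L. It rose by 9.63 on the log2 scale (SE 1.07; limma, adjusted p = 2.1e-05), again with L-A the highest of code L. PRX44 Mm276 had 537, 236 and 126 in code 2, against 4.61, 0 and 0 in code L. PRX42 Mm79448 had 96.0, 52.4 and 4.74 in code 2, against 151, 217 and 314 in code L, and fell by 2.82 (SE 0.81; limma, adjusted p = 0.0083), while the PRX42 sum was not called as deposited (0.06). Of the list's 24 contigs, 12 were higher and 4 lower as deposited (median 1.24). Those shares were close to the 52.4% and 15.1% of all contigs kept. After median ratio scaling, 10 were higher and 5 lower (median 1.05). Summed per locus, 5 of 12 peroxidase loci were higher and 0 lower as deposited, and 4 higher and 3 lower after median ratio scaling (median -0.051).

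Enzymes that make or remove superoxide and hydrogen peroxide held contigs of both directions as deposited, and the sign of their median changed with the scaling. Of 30 contigs, 8 were higher and 10 lower as deposited (median 0.41), and 2 higher and 13 lower after median ratio scaling (median -0.83). GLP3 Mm172849, a germin-like protein of the cell wall, had 3.56, 2.96 and 0.209 in code 2, against 1164, 1433 and 1317 in code L (log2 difference -8.86, SE 0.47; limma, adjusted p = 2.5e-07). CAT2 Mm48788, the catalase that clears peroxide from photorespiration, had 15.8, 17.2 and 68.4 in code 2, against 635, 450 and 693 in code L. CAT1 Mm15853, another catalase, had 52.5, 50.0 and 91.0 in code 2, against 10.2, 12.1 and 13.4 in code L, and rose by 2.3, while the sum over CAT1 contigs was not called as deposited and was lower after median ratio scaling.

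Iron genes did not share 1 direction. Of 70 contigs, 33 were higher and 15 lower as deposited (median 1.15), beside 52.4% and 15.1% of all contigs kept. After median ratio scaling, 19 were higher and 24 lower (median -0.06), beside 21.4% and 24.5%. Ferritins are plastid proteins that store iron. FER1 Mm223 had 2015, 852 and 542 in code 2, against 156, 211 and 300 in code L (log2 difference 2.18, SE 0.45; limma, adjusted p = 0.0012), and was not called after median ratio scaling (0.94). Summed over its contigs, FER1 had 3161, 1634 and 3726 in code 2, against 402, 301 and 480 in code L, which was called under both scalings. FER2 Mm815 had 193, 169 and 569 in code 2, against 27.8, 14.8 and 21.4 in code L. Its locus sum was higher as deposited (2.05) and not called after median ratio scaling (0.82). FER4 showed 2 contigs of opposite direction: Mm11195 had 155, 238 and 671 in code 2, against 15.5, 7.23 and 14.8 in code L, and Mm8545 had 45.9, 15.6 and 10.4 in code 2, against 225, 187 and 251 in code L. The FER4 sum was not called under either scaling.

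Iron transporters and reductases were spread over both directions. The sum of NRAMP3, which exports iron from the vacuole, was 171, 175 and 241 in code 2, against 37.5, 29.5 and 43.8 in code L, and was higher under both scalings. NAS1, a nicotianamine synthase whose product binds iron for transport, had 17.64, 28.3 and 4.90 in code 2, against 0.28, 0.09 and 0.106 in code L. FRO7 Mm1458, a chloroplast ferric reductase, had 42.1, 33.6 and 54.3 in code 2, against 10.7, 7.25 and 11.5 in code L, and was higher as deposited (2.04) but not called after median ratio scaling (0.87). FRO7 Mm29584, of the same locus, went the other way, with 2.89, 5.86 and 2.07 in code 2, against 45.4, 30.1 and 38.7 in code L. The FRO7 sum was called under neither scaling (0.99 as deposited). The YSL3 sum, of a transporter of iron bound to nicotianamine, was 8.0, 5.46 and 7.92 in code 2, against 21.7, 19.5 and 26.8 in code L, and was lower under both scalings. The regulator ILR3 summed to 181, 186 and 186 in code 2, against 116, 107 and 164 in code L, and was called under neither scaling.

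Of 18 contigs of secreted defence proteins, 2 were higher and 8 lower as deposited (median -1.65, or -0.86 without 2-B), and 1 was higher and 10 lower after median ratio scaling. Summed per locus, 2 of 8 loci were higher and 2 lower as deposited (median -0.0042), and 0 were higher and 3 lower after median ratio scaling. The list summed to 0.157%, 0.130% and 0.391% of the total in code 2, against 0.361%, 0.166% and 0.186% in code L, so the codes overlapped. PR4 Mm105918, of a chitin-binding family, had 10.4, 23.5 and 22.8 in code 2, against 90.5, 254 and 178 in code L (log2 difference -3.10, SE 0.44; limma, adjusted p = 9.5e-05). BG3 Mm193, a beta-1,3-glucanase, had 595, 857 and 1007 in code 2, against 9.86, 0 and 0 in code L, and rose by 8.5 on the log2 scale. BG3 Mm283730, of the same locus, was listed at 0 in all 3 code 2 libraries, against 107, 41.6 and 70.5 in code L. Summed, BG3 was higher as deposited (1.93) and not called after median ratio scaling (0.69).

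Proton pumps of the plasma membrane, which power transport by secondary carriers, were mostly higher in code 2. Of 43 contigs, 26 were higher and 4 lower as deposited (median 1.87), and 21 higher and 7 lower after median ratio scaling (median 0.67). AHA2 Mm8 had 809, 479 and 172 in code 2 and was listed at 0 in all 3 code L libraries. AHA2 Mm160 had 866, 683 and 404 in code 2, against 7.88, 1.62 and 2.29 in code L (log2 difference 7.19, SE 0.44; limma, adjusted p = 5.9e-07). The AHA2 sum had 2822, 2207 and 1237 in code 2, against 459, 174 and 405 in code L, a smaller difference of 2.63. AHA1 Mm10800 had 128, 57.7 and 81.1 in code 2, against 8.19, 1.07 and 5.88 in code L. AHA11 Mm48291 had 7.18, 8.07 and 4.1 in code 2, against 49.4, 49.8 and 82.0 in code L, and fell by 3.04.

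Water channels of the plasma membrane were higher in 16 of 30 contigs and lower in 5 as deposited (median 1.73). Those shares were close to the 52.4% and 15.1% of all contigs kept. After median ratio scaling, 12 were higher and 7 lower (median 0.61), beside 21.4% and 24.5% of all contigs kept. PIP1;5 Mm25 had 1873, 2646 and 1629 in code 2, against 405, 272 and 267 in code L (log2 difference 2.70, SE 0.34; limma, adjusted p = 4.7e-05). PIP2;2 Mm493 had 1027, 1032 and 531 in code 2, against 77.4, 51.6 and 61.6 in code L. Sums of PIP1;5 and PIP2;2 were higher as deposited (2.23 and 1.76) and not called after median ratio scaling (0.98 and 0.51). PIP1;4 Mm64656 had 36.5, 152 and 103 in code 2, against 26.8, 38.2 and 22.3 in code L, overlapped and was higher as deposited (1.52; limma, adjusted p = 0.016). That PIP1;4 call was lost after median ratio scaling (0.31), with equal totals (0.94), without 2-B (1.09) and without L-C (1.35). PIP1;5 Mm5575 fell by 1.06, with 31.5, 53.0 and 33.1 in code 2, against 62.2, 80.0 and 105 in code L, a call lost without 2-A (-0.93), 2-C (-0.96) or L-C (-0.87).

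Vesicle export contigs, of the machinery that fuses secretory vesicles with the plasma membrane, were higher in 19 of 28 and lower in 2 as deposited, and higher in 5 and lower in 5 after median ratio scaling. VAMP722 Mm9727, a vesicle SNARE, had 50.5, 51.7 and 60.1 in code 2, against 0, 0.119 and 8.57 in code L (log2 difference 4.64, SE 0.71; limma, adjusted p = 0.00016). SYP121 Mm2639, a plasma membrane SNARE, had 29.3, 11.9 and 11.4 in code 2, against 103, 69.1 and 77.2 in code L, and fell by 2.29. SYP121 Mm39322 had 96.9, 35.5 and 28.3 in code 2, against 3.73, 3.38 and 10.8 in code L, and rose by 2.91. Summed, VAMP722 was higher as deposited (1.70) and not called after median ratio scaling (0.47). The SYP121 sum was not called as deposited (-0.34) and was lower after median ratio scaling (-1.57).

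Senescence and chlorophyll breakdown contigs went both ways, with 13 of 33 higher and 9 lower as deposited (median -0.18, or 0.10 without 2-B and 0.27 without L-C), and 10 higher and 17 lower after median ratio scaling (median -1.41). GLN1;1 Mm26, like cytosolic glutamine synthetase, which recovers ammonium, had 1543, 1363 and 244 in code 2, against 33.4, 19.6 and 18.8 in code L (log2 difference 5.05, SE 0.60; limma, adjusted p = 3.1e-05). WRKY6 Mm24316, a factor of senescence and defence, had 27.9, 36.3 and 29.6 in code 2, against 233, 377 and 349 in code L, and fell by 3.29. WRKY6 Mm2002, of the same locus, went the other way, with 69.2, 44.8 and 40.4 in code 2, against 9.54, 1.93 and 7.54 in code L. The WRKY6 sum was lower under both scalings (-1.84 as deposited). NYC1 Mm4339, a chlorophyll b reductase, had 16.3, 22.4 and 57.7 in code 2, against 104, 71.2 and 114 in code L. Autophagy contigs were higher in 15 of 24 and lower in 0 as deposited, and higher in 4 and lower in 2 after median ratio scaling. ATG8C Mm2367, the protein that coats autophagosomes, had 200, 247 and 92.5 in code 2, against 9.37, 14.9 and 18.0 in code L.

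The split of calls in the polyamine, heat shock and cell division lists depended on the scaling, as it did over all contigs kept. Of those, 52.4% were higher and 15.1% lower as deposited, and 21.4% and 24.5% after median ratio scaling. Polyamine synthesis was higher in 27 of 31 contigs and lower in 0 as deposited, and higher in 6 and lower in 1 after median ratio scaling. SAMDC3 Mm20, an S-adenosylmethionine decarboxylase, had 1790, 1374 and 735 in code 2, against 68.7, 44.8 and 44.8 in code L (log2 difference 4.53, SE 0.37; limma, adjusted p = 3.1e-06). Heat shock contigs were higher in 19 of 45 and lower in 5 as deposited, and higher in 7 and lower in 8 after median ratio scaling. HSP90.1 Mm148224, a chaperone, had 91.9, 93.6 and 44.7 in code 2, against 17.0, 10.8 and 12.9 in code L. HSP70-4 Mm5075 had 34.1, 18.6 and 3.52 in code 2, against 95.2, 81.6 and 178 in code L. Summed, HSP90.1 was higher as deposited (1.92) and not called after median ratio scaling (0.69), and HSP70-4 was called under neither scaling. Cell division contigs were higher in 12 of 33 and lower in 2 as deposited (median 0.22, or -0.03 without 2-B), and higher in 5 and lower in 13 after median ratio scaling. Summed per locus, 6 of 19 cell division loci were higher and 4 lower as deposited (median -0.33). After median ratio scaling, 0 of these sums were higher and 12 lower.

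**Figure D3:**
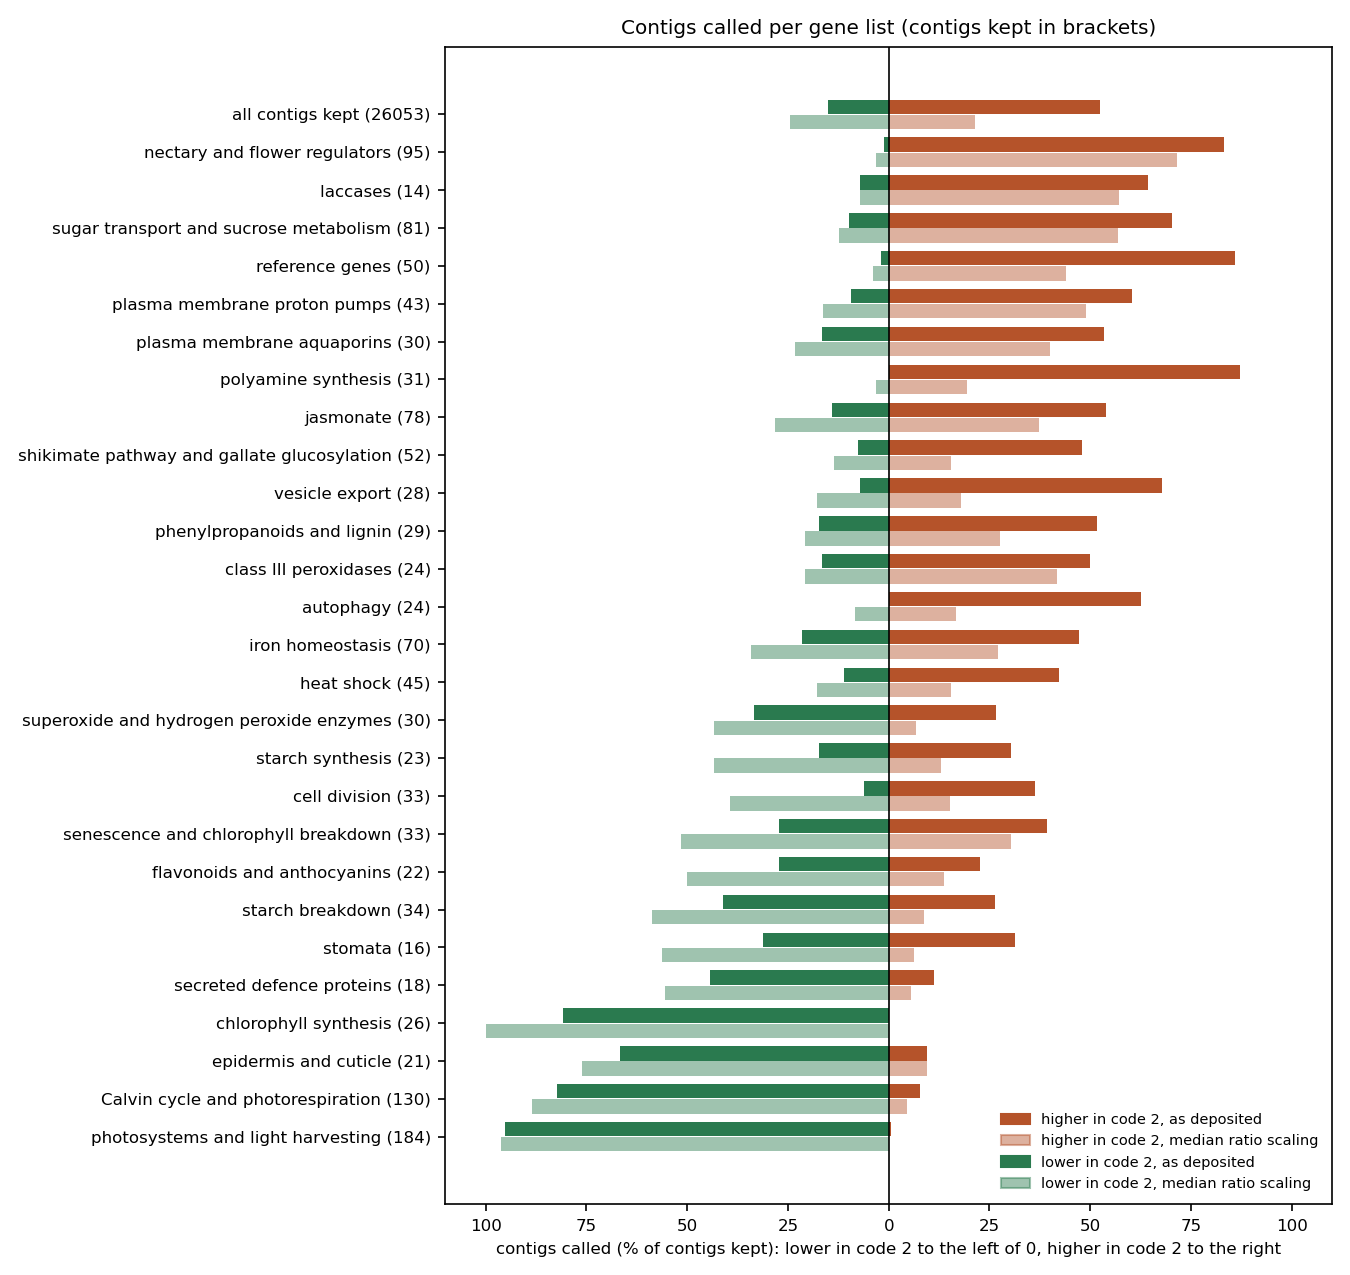
Share of the kept contigs (number in brackets) of each list with at least 10 contigs kept called higher in code 2 (right of 0) and lower in code 2 (left of 0), as deposited (dark bars) and after median ratio scaling (pale bars), with all 26053 contigs kept at the top. Photosystems, Calvin cycle, chlorophyll synthesis and epidermis are among the lists that point to the left under both scalings. Regulators, laccases and sugar genes are among those that point to the right. Cell division, starch synthesis, iron homeostasis, heat shock and senescence change side. All contigs kept also change side, from 52.4% higher and 15.1% lower as deposited to 21.4% and 24.5% after median ratio scaling.

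Among markers of other tissues, epidermis and cuticle contigs were lower in 14 of 21 and higher in 2 as deposited (median -2.93), and lower in 16 and higher in 2 after median ratio scaling. Their sum was 0.0246%, 0.0302% and 0.0139% of the total in code 2, against 0.128%, 0.154% and 0.107% in code L. CER6 Mm127877, which elongates wax chains, had 0.40, 5.01 and 1.169 in code 2, against 66.5, 65.9 and 65.98 in code L (log2 difference -4.67, SE 0.44; limma, adjusted p = 8.0e-06). LTPG1 Mm227032, a lipid transfer protein of the cuticle, had 2.48, 9.84 and 3.53 in code 2, against 87.1, 170 and 119 in code L.

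Stomatal markers were divided, with 5 of 16 contigs higher and 5 lower as deposited, and 1 higher and 9 lower after median ratio scaling. EPFL9, a peptide made by photosynthetic tissue that promotes stomata, summed to 0.185, 0.178 and 0 in code 2, against 13.1, 29.0 and 24.6 in code L, and was lower under both scalings. TMM Mm22137, a receptor of stomatal patterning, had 104, 121 and 33.5 in code 2, against 21.3, 5.43 and 13.2 in code L, and was higher as deposited (2.59) but not called after median ratio scaling (1.42). Of the 5 contigs kept for pollen and tapetum, 3 were higher and 0 lower as deposited, and 1 was higher and 0 lower after median ratio scaling. Of the 5 kept for vascular tissue, 0 were higher and 1 lower as deposited, and 0 were higher and 2 lower after median ratio scaling. The part of these tissues in the lists above was not tested.

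Reference genes, often taken as constant, were higher in 43 of 50 contigs and lower in 1 as deposited (median 1.99), and higher in 22 and lower in 2 after median ratio scaling (median 0.91). ACT7 Mm998, an actin, had 229, 293 and 202 in code 2, against 2.72, 0.579 and 0.408 in code L (log2 difference 6.89, SE 0.34; limma, adjusted p = 2.2e-07). Summed over its contigs, ACT7 was higher as deposited (1.83) and not called after median ratio scaling.

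The largest rises outside the lists are given by their descriptions in the table. Mm897, a bifunctional inhibitor or lipid-transfer protein (AT4G33355), had 566, 676 and 3162 in code 2, against 6.07, 0.239 and 0.187 in code L (log2 difference 8.93, SE 0.74; limma, adjusted p = 3.6e-06). Mm31, described as a beta-glucosidase, an enzyme class that frees sugars from glucosides, had 679, 1077 and 565 in code 2, against 4.48, 0 and 0.299 in code L. Mm40, a hydroxyproline-rich glycoprotein, had 1098, 1371 and 364 in code 2, against 12.0, 0.129 and 0 in code L. Mm16, of the invertase and pectin methylesterase inhibitor family, had 1713, 1121 and 306 in code 2, against 12.4, 0.112 and 0.355 in code L. In each of these contigs L-A was the highest code L library.

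Of the 10 largest falls by the naming rule, 6 were of contigs outside the lists. Mm264387, like the chloroplast redox protein thioredoxin M-type 4, had 0.379, 1.12 and 0.173 in code 2, against 474, 629 and 905 in code L (log2 difference -8.74, SE 0.34; limma, adjusted p = 9.3e-08). Mm291837, described as the petM subunit of the cytochrome b6f complex, which joins the photosystems, had 1.12, 0 and 0 in code 2, against 361, 570 and 612 in code L. The B-box zinc finger contigs Mm307929 and Mm307470 had at most 0.609 and 0.748 in code 2 and at least 332 and 367 in code L. Mm239942, described by its single hybrid motif (AT1G32470), had 1.09, 0.916 and 0 in code 2, against 404, 474 and 666 in code L. Mm222585, like galactinol synthase 4, which makes the donor of raffinose sugars, had 0.1, 0.721 and 6.18 in code 2, against 491, 472 and 1255 in code L.

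Contigs matched to 1 Arabidopsis locus did not always move together. Of 5627 loci with at least 2 contigs kept, 427 (7.59%) had contigs called in opposite directions under both scalings, which is 21.6% of the 1973 loci with at least 2 contigs so called. SBPASE, a Calvin cycle phosphatase, gave Mm1955 with 21.5, 21.3 and 21.7 in code 2, against 1.27, 0.38 and 4.62 in code L. The other SBPASE contig, Mm67777, had 1.16, 6.74 and 12.8 in code 2, against 674, 577 and 879 in code L. GOX1, the glycolate oxidase of photorespiration, gave Mm26773 with 18.4, 25.7 and 47.9 in code 2, against 1.1, 0.605 and 1.15 in code L, and Mm1657 with 84.6, 91.9 and 40.9 in code 2, against 1465, 782 and 2035 in code L. CER1, of wax synthesis, gave Mm10296 with 12.2, 5.58 and 3.09 in code 2, against 0.096, 0.093 and 0.073 in code L, and Mm8000 with 14.01, 11.2 and 7.73 in code 2, against 104, 138 and 132 in code L. These loci were chosen after their values were seen, and whether such contigs are separate genes, forms of 1 gene or divided reads was not tested.

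**Figure D4:**
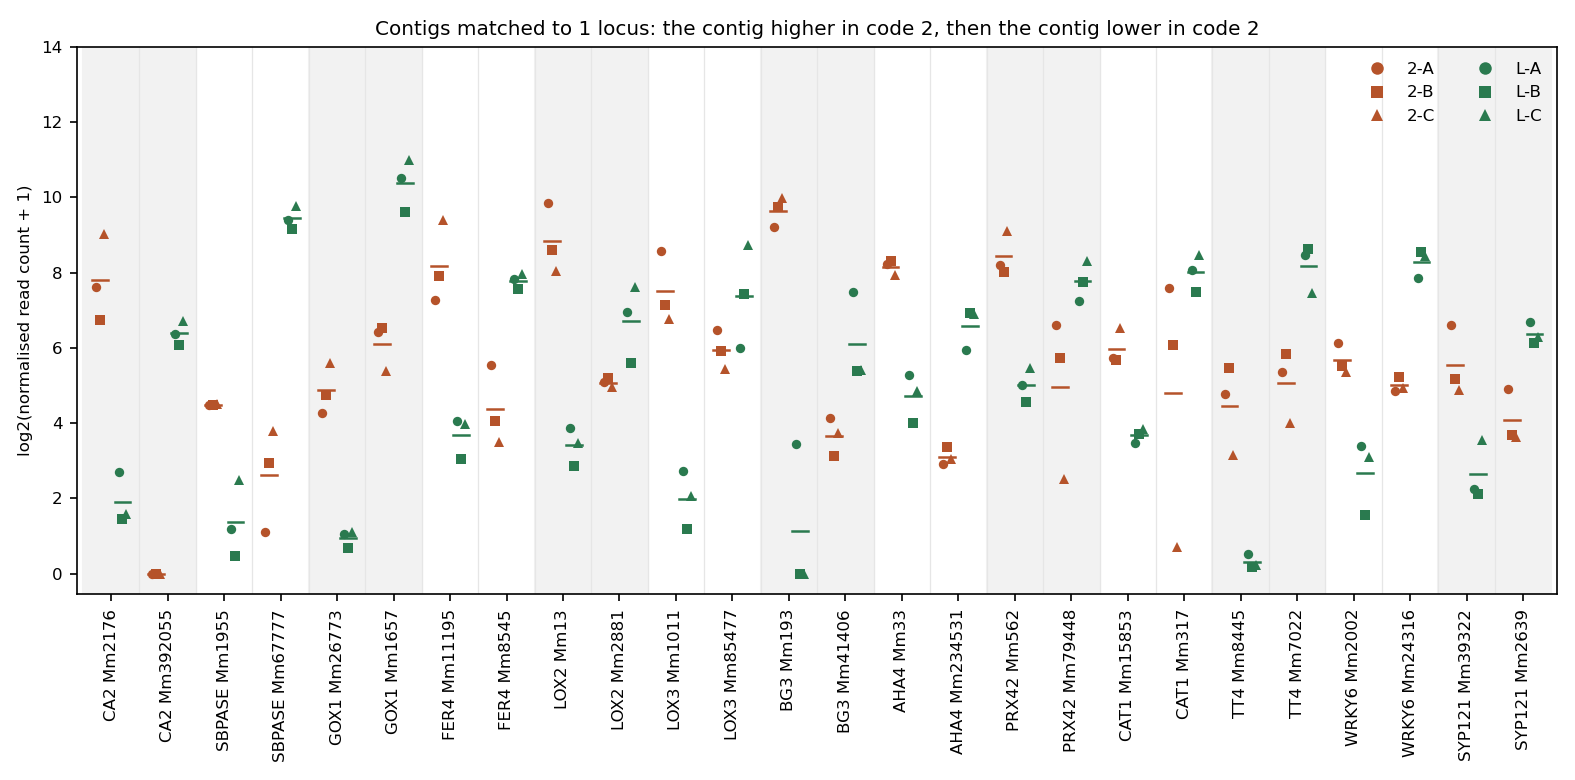
For 13 Arabidopsis loci, the contig higher in code 2 and then the contig lower in code 2, as log2(normalised read count + 1), with code 2 libraries left and code L libraries right in each pair. Points are single libraries and horizontal bars are group means. The contigs were chosen because they were called in opposite directions. That choice sets the change of order of the group means within each shaded or white band, as for SBPASE Mm1955 and Mm67777. Single libraries of the codes overlap in LOX3 Mm85477 and CAT1 Mm317.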

How the data were processed

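Per the labels' protocols, total RNA (RNAqueous Micro kit, DNase) was sequenced in paired-end NovaSeq runs. Reads were assigned to transcripts with kallisto 0.46.1, per the submitters' processing notes. The deposited signal is a normalised read count per contig and library, per the file headers. The sources used here do not say how contigs were assembled, scaled or selected for the table, and shares of contigs are shares of that table. The values are not whole numbers, so no count model was used. Of 68651 contigs, 67753 have a closest Arabidopsis locus (16092 loci). No raw read depth is known.

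Contigs at 10 or more in at least 2 of 11 libraries (26053) entered 1 limma fit (limma 3.58.1, R 4.3.3) on log2(value + 1), with a mean for each code, all 11 libraries and a trended empirical Bayes variance. Two-sided p-values were adjusted over all contigs kept by the Benjamini-Hochberg method. A log2(value + 1) difference understates the change of low contigs. Tables were made with pandas 2.3.3 in Python 3.11.15, and figures with matplotlib 3.10.9. The procedure was tested on simulated data. Sums per locus cover all contigs of the locus in the table, filtered and tested alike.

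The members, the 29 gene lists (663 Arabidopsis loci, 385 with a contig kept, 1274 contigs) and the tests were chosen with earlier results of these data known. Gene symbols were assigned to loci from general knowledge of Arabidopsis. Named contigs were the highest contig, by mean over the 6 libraries, of each of 34 key loci (3 had none kept). In each list and direction up to 2 called contigs of largest difference were added, without overlap and with a mean of at least 50 in the higher code. Over all contigs, the 10 largest rises and falls with a mean of at least 500, 1 per locus, were also named. Contigs and sums of other list loci were named after their values were seen. Alternatives were other scalings, pseudocounts, filters and thresholds, library weights, other samples or groups in the fit, a block for the library letter, each library left out, and sums or 1 contig per locus.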

Additional observations from a re-analysis of the deposited data

How the results depend on the processing

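Numbers of calls moved with the number of features tested, and also with the pseudocount, the threshold and the scaling. Against 13652 higher and 3926 lower (17578 in all), the filter at 50 gave 4015 and 1275 (5290), no filter 23171 and 7945 (31116), 1 contig per locus 5635 and 1716 (7351), and sums per locus 5844 and 1818 (7662). A pseudocount of 10 gave 7345 higher and 10053 in all, and a log2 difference of at least 2 gave 6400 higher and 9047 in all. Median ratio scaling gave 5571 higher and 6391 lower. Together with sums per locus, a setting chosen after seeing the data, it gave 1406 higher and 4780 in all. Leaving out 1 library gave 12551 to 14248 higher and 2942 to 3958 lower, fewest lower without L-C.

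Letters of the library codes were not taken as pairs, because deviations of same-letter libraries correlated at 0.149 (A), 0.0962 (B) and 0.124 (C), although each library correlated best with its own letter. With the letter as a replicate block, 16869 contigs were called with the 6 libraries and 17768 with all 11, and all 108 named contigs kept their direction and call.

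Directions of named contigs reversed mainly where values were summed per locus, which adds other contigs. Under that setting the values were RBCS1A Mm9468 -4.74, LOX3 Mm1011 -0.20, LOX2 Mm2881 2.19, PAL1 Mm361 -0.30, FER4 Mm8545 0.47, PRX42 Mm3331 and Mm79448 0.059, BG3 Mm283730 1.93, AHA4 Mm234531 1.35, PIP1;5 Mm5575 2.23, SYP121 Mm39322 -0.34, and HSP70-4 Mm189296 and Mm5075 0.86. With median ratio scaling of the sums they were CA2 Mm2176 -0.86, RBCS1A Mm9468 -5.98, SPS2F Mm108508 -0.33, LOX3 Mm1011 -1.44, LOX2 Mm2881 0.95, PAL1 Mm361 -1.53, FER4 Mm11195 -0.77, FRO7 Mm1458 -0.24, CAT1 Mm6983 and Mm15853 -1.09, BG3 Mm283730 0.69, AHA4 Mm234531 0.11, PIP1;4 Mm64656 -0.0053, PIP1;5 Mm5575 0.98 and SYP121 Mm39322 -1.57. Median ratio scaling of contigs gave SPS2F Mm108508 -0.97 and PAL1 Mm361 -0.33, and equal totals gave SPS2F Mm108508 -0.36. Apart from these settings no direction of a named contig changed. Depth in reads is unknown, so how far it limits low contigs cannot be stated.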

Other observations

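Groups formed from words in the table's descriptions, chosen after seeing the data, gave counts for classes outside the lists. Proteasome subunits, which degrade tagged proteins, were higher in code 2 in 74 of 94 contigs and lower in 1 as deposited, and higher in 28 and lower in 2 after median ratio scaling. Proton pumps of the vacuole were higher in 54 of 65 contigs and lower in 0, and higher in 26 and lower in 1 after median ratio scaling. NAC transcription factors were higher in 44 of 62 contigs and lower in 10 as deposited (median 1.91), and higher in 30 and lower in 11 after median ratio scaling (median 1.12).

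Ribosomal protein contigs, without those described as of chloroplasts, plastids or mitochondria, were higher in 537 of 956 and lower in 80 as deposited. Their median was 1.21, close to 1.18 over all contigs kept, of which 52.4% were higher and 15.1% lower. After median ratio scaling, 98 were higher and 154 lower, beside 21.4% and 24.5% of all contigs kept. Contigs with the word thioredoxin in their descriptions, of any part of the cell, were higher in 41 of 115 and lower in 43 as deposited. After median ratio scaling, 20 were higher and 55 lower. Cupredoxins, small copper proteins, were higher in 1 of 8 contigs and lower in 5 under both scalings. Contigs described with the words polyphenol, tyrosinase or SKU5 were higher in 3 of 16 and lower in 3 as deposited. After median ratio scaling, 1 was higher and 4 were lower. Which of these words each contig carried was not separated.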
